A study of Mus musculus with 32 samples.

Results

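The Ciita promoter baits were examined for contacts with fragments at least 1 Mb away on their own chromosome, 16. A contact here is a pair of DpnII restriction fragments, a bait and another fragment, that was read as a ligation product in Capture-C. This assay cuts crosslinked chromatin, joins fragments that lie near each other in the nucleus, and enriches the junctions of chosen baits. Pairs were chosen by bait name and by the deposited distance alone, without regard to their reads, and were joined between both contact tables of the series. This gave 455 pairs on 436 fragments, of 30435 pairs of all baits, and 16922 reads.

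The cells were small-intestinal epithelial organoids of aged C57BL/6JRj mice, 20 to 22 months old per the series text, from 2 animals, at passages 2 to 5. Organoids are cultures grown from intestinal stem cells, so they hold epithelium without the immune cells that carry most MHC class II in the gut. 3 days after splitting they received interferon gamma (IFNγ) at 500 pg/ml in growth medium for 3 hours, or growth medium alone, and about 25000 cells went into a library. All groups were from aged mice, and no genotype or allele was changed. The 32 sequencing samples were 8 libraries on 4 lanes each, with 4 libraries per condition.

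Each table has 4 count columns. The sample descriptions attach the table with the control in its name to the IFNγ samples and the other table to the medium samples, so neither table was assigned to a condition. Each is named here after its file, as control-named or IFNγ-named. Differences are given as IFNγ-named minus control-named, and their sign turns if the subtraction is turned. The columns name no mouse, passage or lane. They were read as the 4 libraries of each table, and every n of libraries below rests on that reading. Each table's 4 libraries derive from only 2 mice, which can make p-values between tables too small. Library totals ran from 23037 to 37290 reads over all baits, and the Ciita baits held 6785 to 12036 of them.

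Ciita encodes the class II transactivator, a coactivator that binds no DNA itself and is recruited by factors on the promoters of MHC class II genes. The gene has several start sites that are used in different cell types, and the most downstream one is known as the IFNγ-inducible promoter. Contacts over megabases reflect the folding of the whole chromosome: their frequency falls with distance, and active, gene-rich stretches tend to meet one another.

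The gene is read toward higher coordinates, so lower coordinates are called upstream. Bait Ciita_1 covered 10479663 to 10480580 (build mm10), Ciita_2 covered 10486858 to 10489086, and Ciita_3 covered 10489551 to 10489878. The first 60 bases of each bait, from the mm10 reference, are shown because a ligation joins the cut end to the distant fragment. Capitals mark the DpnII site.
Ciita_1 bait, chr16:10479663-10479722: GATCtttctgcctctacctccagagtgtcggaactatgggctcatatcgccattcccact
Ciita_2 bait, chr16:10486858-10486917: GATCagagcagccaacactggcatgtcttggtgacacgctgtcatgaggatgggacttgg
Ciita_3 bait, chr16:10489551-10489610: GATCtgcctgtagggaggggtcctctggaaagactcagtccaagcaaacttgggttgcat

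Distant fragments of at most 300 bases that the results below turn on are shown whole on the plus strand of mm10, with the same site in capitals. The first 3 had among the highest median reads of their start site. The next 4 carried the upstream reads at Crebbp and near it. The last pair lay in App, which held nearly all reads of 1 window, and at the start of the interferon-induced gene Mx1.
Ciita_1 with Shisa9 intron, chr16:12038677-12038796: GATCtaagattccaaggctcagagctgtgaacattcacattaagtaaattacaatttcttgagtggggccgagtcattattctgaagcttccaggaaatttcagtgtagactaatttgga
Ciita_2 with AC169509.1 intron, chr16:24170277-24170514: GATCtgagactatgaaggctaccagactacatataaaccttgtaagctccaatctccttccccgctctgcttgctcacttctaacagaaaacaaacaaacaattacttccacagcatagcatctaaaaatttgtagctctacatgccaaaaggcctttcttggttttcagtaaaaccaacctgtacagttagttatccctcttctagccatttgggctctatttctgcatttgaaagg
Ciita_2 with intergenic fragment, chr16:78034754-78034861: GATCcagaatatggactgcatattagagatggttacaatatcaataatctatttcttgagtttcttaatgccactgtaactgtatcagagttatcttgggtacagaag
Ciita_1 with Crebbp exon, chr16:4118969-4119264: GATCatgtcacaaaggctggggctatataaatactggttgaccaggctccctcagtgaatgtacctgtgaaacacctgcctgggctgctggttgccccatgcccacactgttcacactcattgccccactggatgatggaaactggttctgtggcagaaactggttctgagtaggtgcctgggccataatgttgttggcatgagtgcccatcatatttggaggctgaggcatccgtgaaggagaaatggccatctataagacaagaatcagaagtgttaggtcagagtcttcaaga
Ciita_3 with Crebbp intron, chr16:4139930-4140114: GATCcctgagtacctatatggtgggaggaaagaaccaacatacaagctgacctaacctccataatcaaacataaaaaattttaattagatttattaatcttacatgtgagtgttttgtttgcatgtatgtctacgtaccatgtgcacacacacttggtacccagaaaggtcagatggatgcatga
Ciita_3 with Glis2 intron, chr16:4600613-4600744: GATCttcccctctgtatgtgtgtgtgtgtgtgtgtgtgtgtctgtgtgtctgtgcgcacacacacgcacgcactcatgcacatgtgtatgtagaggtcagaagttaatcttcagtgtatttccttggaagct
Ciita_3 with intergenic fragment, chr16:4821327-4821537: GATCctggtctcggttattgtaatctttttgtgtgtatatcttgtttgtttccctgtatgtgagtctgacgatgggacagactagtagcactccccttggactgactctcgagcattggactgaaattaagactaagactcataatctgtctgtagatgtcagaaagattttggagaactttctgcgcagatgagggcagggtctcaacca
Ciita_3 with App intron, chr16:84970285-84970487: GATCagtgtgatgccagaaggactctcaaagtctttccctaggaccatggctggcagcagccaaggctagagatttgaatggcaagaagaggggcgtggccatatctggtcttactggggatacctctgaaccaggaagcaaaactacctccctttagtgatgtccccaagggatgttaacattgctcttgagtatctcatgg
Ciita_3 with Mx1 intron, chr16:97462428-97462627: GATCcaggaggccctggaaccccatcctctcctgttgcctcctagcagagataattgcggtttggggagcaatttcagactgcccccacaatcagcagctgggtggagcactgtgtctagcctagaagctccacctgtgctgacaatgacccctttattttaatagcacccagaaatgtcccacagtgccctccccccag

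Repeats marked in the reference covered 0% of the Shisa9, App and Mx1 fragments, 45.9% of the Crebbp intron fragment and 76.5% of the Glis2 fragment. The Glis2 fragment includes a run of alternating T and G near its left end.

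Distant reads reached nearly the whole chromosome but came from few fragments. The pairs ran from 3469975 to 97924196, between 1.02 Mb and 87.4 Mb from their bait. On the upstream side, where the chromosome ends near the gene, lay 64 pairs with 3703 reads, and downstream lay 391 pairs with 13219 reads. Ciita_1 had 116 pairs and 4068 reads, Ciita_2 184 pairs and 6284 reads, and Ciita_3 155 pairs and 6570 reads.

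Reads per pair fell into 2 kinds. A single read made up 239 of the 455 pairs (52.5%), 26 pairs had 2 to 9 reads, and 190 pairs had 10 or more. Those 190 pairs held 98.1% of the distant reads, with a median of 74 reads and quartiles of 43.5 and 117 reads. The 10-read limit is the filter of the tests below. Of the single reads, 120 were control-named and 119 IFNγ-named. Of the pairs with 10 or more reads, 189 of 190 were listed in both tables, against 198 of all 455.

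**Figure D1:**
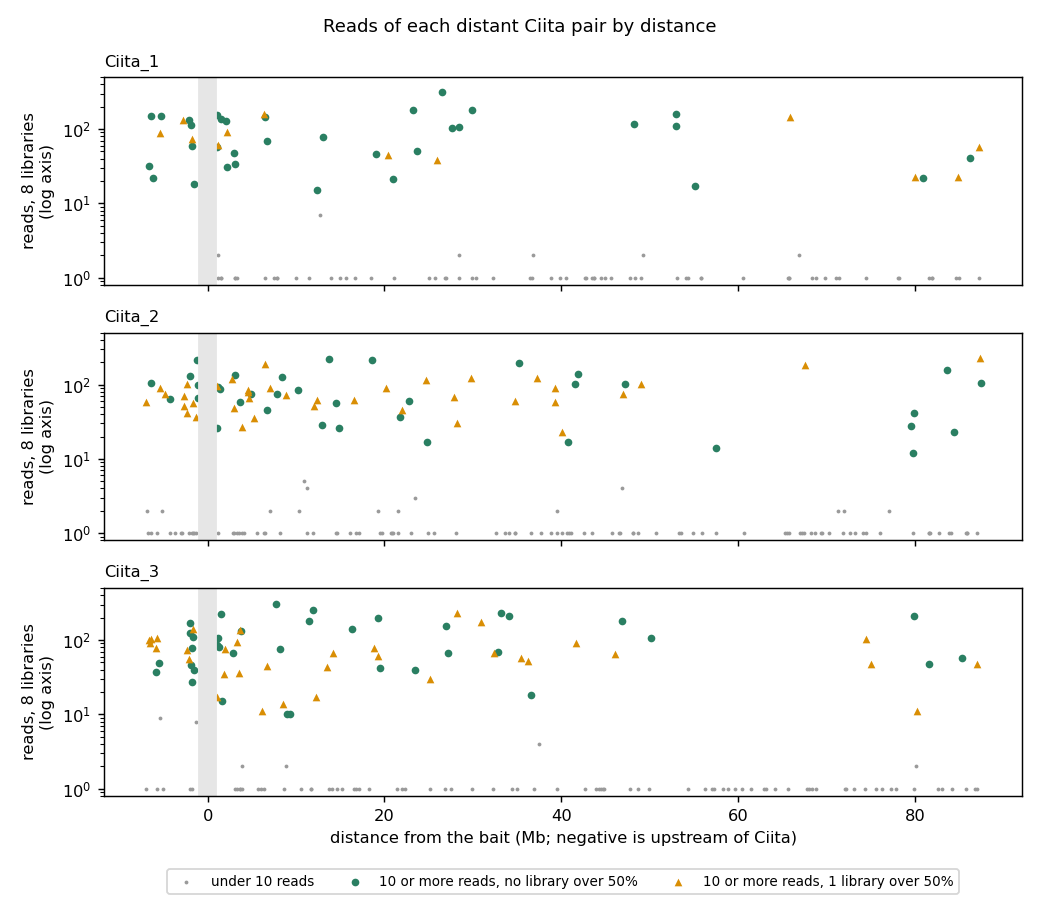
Reads summed over 8 libraries (log axis) of each of the 455 distant pairs against distance from the bait in Mb, by start site; triangles are pairs of 10 or more reads with 1 library over 50%, circles the other such pairs, dots pairs under 10 reads, and the grey band is the excluded range within 1 Mb. Pairs lie either at 1 read or mostly between 10 and 318 reads, over most of the distance range.

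At the 1 Mb limit the pairs looked alike on both sides. The nearest downstream pairs inside it were Ciita_3 with 17 reads at 1.02 Mb and Ciita_1 with 157 reads at 1.03 Mb, and the nearest outside it was Ciita_2 with 67 reads at 0.937 Mb. Upstream, the nearest pair inside was Ciita_2 with 98 reads at 1.05 Mb, and outside it was Ciita_3 with 36 reads at 0.946 Mb.

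In many well-read pairs 1 library stood far above the other 7. Of the 149 pairs with 40 or more reads, 147 had reads in all 8 libraries. The highest library held a median of 47.5% of a pair's reads and from 14.9% to 94.4%. It held over 50% in 68 pairs and over 80% in 37, and under 25% in 29. A pair of 10 or more reads with over 50% in 1 library is called dominated below; 84 of 190 were. Outside that library the counts were even: in the 108 pairs with 20 or more reads there, the other 7 libraries varied by 0.726 times the variance expected from counting error on average (removing the highest of 8 lowers this value), against 26.2 times over all 8 libraries in the 149 pairs. Every library was the highest one for some pairs, from 9 pairs for IFNγ-named library 4 to 35 pairs for control-named library 2. Among other baited genes the mean share of the highest library, over 498 distant pairs of 40 or more reads, was 50.5%, against 52.4% for Ciita. What gives 1 library its high count was not tested.

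The named fragments show both kinds of pair. For each start site they are the 5 with the highest median, over libraries, of reads per 10000 library reads. Ciita_1 was read with an intron of Polq, a DNA polymerase of double-strand break repair, at 37033856 to 37034534, 26.6 Mb downstream, which also had the most reads of all pairs, 318. Its counts were 25, 35, 19 and 116 in control-named libraries 1 to 4, and 26, 29, 34 and 34 in IFNγ-named libraries 1 to 4. The tables overlapped, and only control-named library 4 stood apart.

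Ciita_1 was also read with an intron of Lsamp, a neuronal cell adhesion gene, at 40331081 to 40332351. Counts there were 19, 16, 16 and 13 in the control-named table, and 66, 17, 12 and 19 in the IFNγ-named table. An intergenic fragment 7.08 kb from Slc12a8, at 33671217 to 33671702, had 17, 17, 17 and 12 control-named reads, and 17, 68, 19 and 13 IFNγ-named reads. In both, 1 IFNγ-named library was high and the other 7 lay within a few reads of one another.

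An intron of Nagpa, an enzyme of lysosomal targeting, at 5201605 to 5202252 (-5.28 Mb from the bait), had 11, 65, 14 and 13 control-named reads, and 15, 9, 10 and 14 IFNγ-named reads. The short Shisa9 intron fragment printed above had 15, 40, 12 and 13 control-named reads, and 13, 14, 17 and 11 IFNγ-named reads. Control-named library 2 was the high one in both.

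For Ciita_2, an intergenic fragment at 29118667 to 29119348, 90.3 kb from Hrasls, had 80, 28, 19 and 15 control-named reads, and 15, 15, 21 and 20 IFNγ-named reads. The printed fragment in the long non-coding gene AC169509.1, 181 kb from Bcl6, had 24, 16, 18 and 93 control-named reads, and 10, 16, 21 and 22 IFNγ-named reads. The printed intergenic fragment 267 kb from Cxadr, 67.5 Mb from the bait, had 94, 9, 11 and 10 control-named reads, and 12, 19, 15 and 15 IFNγ-named reads. Each was highest in 1 control-named library.

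Closer to the bait, an intergenic fragment at 9243263 to 9244480, upstream and 323 kb from Grin2a, gave Ciita_2 22, 18, 17 and 13 control-named reads, and 12, 20, 84 and 26 IFNγ-named reads. The fifth fragment, at 8468858 to 8469293, next to Mettl22, had 20, 21, 15 and 12 control-named reads, and 13, 17, 15 and 18 IFNγ-named reads. It was the most even named pair, with 16.0% of its reads in the highest library.

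For Ciita_3, an intergenic fragment at 29778748 to 29779851, 124 kb from Opa1, was also even, with 35, 37, 16 and 18 control-named reads, and 17, 21, 27 and 26 IFNγ-named reads. The pair with the second most reads of all, 306, was an intergenic fragment at 18196470 to 18196858, 21.0 kb from Ccdc188, with 23, 39, 19 and 16 control-named reads, and 14, 142, 24 and 29 IFNγ-named reads. The third, with 252 reads, was an intron of Etv5, an ETS transcription factor, at 22398371 to 22398767, with 28, 28, 16 and 15 control-named reads, and 16, 104, 24 and 21 IFNγ-named reads. IFNγ-named library 2 was high in both.

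The other Ciita_3 fragments of this rank were an intergenic one 14.3 kb from Hunk, 79.9 Mb from the bait at 90370744 to 90371705, and an intron of Boc, a hedgehog co-receptor, at 44523345 to 44523875. The first had 24, 29, 18 and 12 control-named reads, and 76, 16, 20 and 19 IFNγ-named reads. The second had 24, 25, 10 and 13 control-named reads, and 85, 20, 17 and 20 IFNγ-named reads. IFNγ-named library 1 was highest in both, and in none of the 15 fragments did the libraries of the tables separate.

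**Figure D2:**
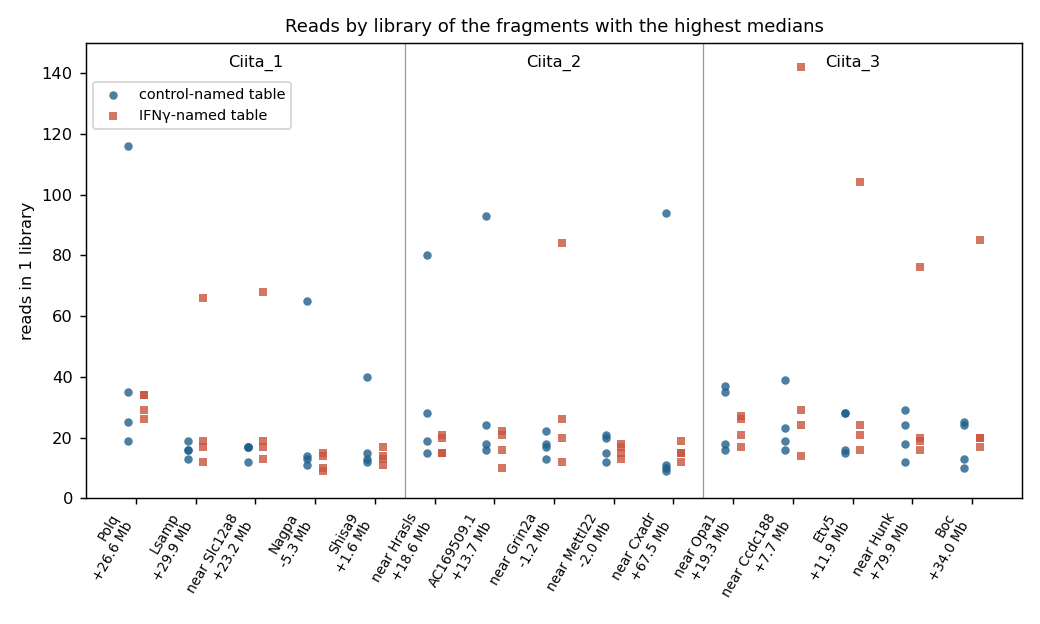
Reads in each library of the 5 fragments with the highest median per start site, labelled by gene or nearest coding gene and distance; circles are control-named and squares IFNγ-named libraries. Most fragments have 7 libraries between 9 and 39 reads and 1 library above them, up to 142 reads for the Ciita_3 fragment near Ccdc188.

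The start sites did not share their strongly read distant fragments. They lie within 10 kb of each other. No fragment had 10 or more reads from more than 1 of them, and 418 of 436 fragments were listed with 1 start site only. Fragments with 10 or more reads numbered 45 for Ciita_1, 74 for Ciita_2 and 71 for Ciita_3, of 174167 DpnII fragments in the range. Sets this small share few fragments by chance too, and no expected overlap was computed. Ciita_2 and Ciita_3 shared 14 fragments (7.61% of the Ciita_2 and 9.03% of the Ciita_3 fragments), Ciita_1 and Ciita_2 shared 4 (3.45% and 2.17%), and Ciita_1 and Ciita_3 shared 2 (1.72% and 1.29%). In all 18 shared fragments the second start site had 4 reads or fewer. The 1 fragment listed with all 3, at 92105249 to 92105731 near the start of Mrps6, a mitochondrial ribosomal protein gene, had 47 reads from Ciita_3 and 1 read from each of the others.

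In larger bins, which must share more, the start sites met more often, and the overlap that chance gives was not computed. Counting pairs of 10 or more reads, Ciita_2 and Ciita_3 had 10 bins of 100 kb in common (14.5% of the Ciita_2 and 15.6% of the Ciita_3 bins) and 23 bins of 1 Mb (56.1% and 60.5%). All 3 start sites met in 5 bins of 100 kb. These were chosen after their reads were seen: the Crebbp gene, a bin at Tmem114 and Mettl22, 2 neighbouring bins in Snx29, and a bin holding Hic2.

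Crebbp, which encodes the acetyltransferase and coactivator CBP, was taken as an example of neighbouring fragments. Ciita_1 was read with a coding exon fragment, at -6.36 Mb, with 14, 15, 14 and 11 control-named reads, and 11, 64, 8 and 13 IFNγ-named reads. Ciita_2 was read with an intron fragment at 4108305 to 4108793, with 13, 41, 7 and 10 control-named reads, and 7, 9, 9 and 8 IFNγ-named reads. The Ciita_3 intron fragment printed above had 1, 2, 94 and 1 control-named reads, and 1 in each IFNγ-named library. A different library was high for each start site. In Snx29, fragments starting at 11510872 (Ciita_3), 11517747 (Ciita_1) and 11520504 (Ciita_2) lay closer together than those in Crebbp.

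Few distant fragments of a start site lay next to one another, in a range where pairs are also far sparser. Of the 190 pairs with 10 or more reads, 6 (3.16%) had another such pair of the same start site within 10 kb, against 151 of 201 such pairs (75.1%) at 10 kb to 1 Mb from the same baits, where pairs are dense; no expected value was set beside these shares. Within 100 kb it was 51 of 190 (26.8%).

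With both sides of the gene pooled, read density fell with distance but stayed above the level of other chromosomes. Per Mb of DpnII fragments and per 10000 Ciita reads, it was 207 ± 60.7 reads at 1 to 2 Mb (mean ± SD, n = 8 libraries), 57.7 ± 13.9 at 2 to 5 Mb and 54.0 ± 13.9 at 5 to 10 Mb. It was 29.8 ± 5.57 at 10 to 20 Mb, 22.7 ± 4.90 at 20 to 50 Mb and 8.40 ± 2.17 beyond 50 Mb, against 1.47 ± 0.146 on the other chromosomes. For the other chromosomes the length was all known bases of the reference, in place of summed fragments. The lowest library beyond 50 Mb, at 5.42, lay above the highest on other chromosomes, at 1.65. Neighbouring classes between 2 and 50 Mb overlapped, and the first and last classes lay apart from theirs in every library. Upstream alone, the mean rose from 43.4 ± 27.7 at 2 to 5 Mb to 76.1 ± 29.4 at 5 to 10 Mb. Downstream alone it fell from 72.1 ± 28.4 to 43.0 ± 11.6 (SD, n = 8 libraries each).

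**Figure D3:**
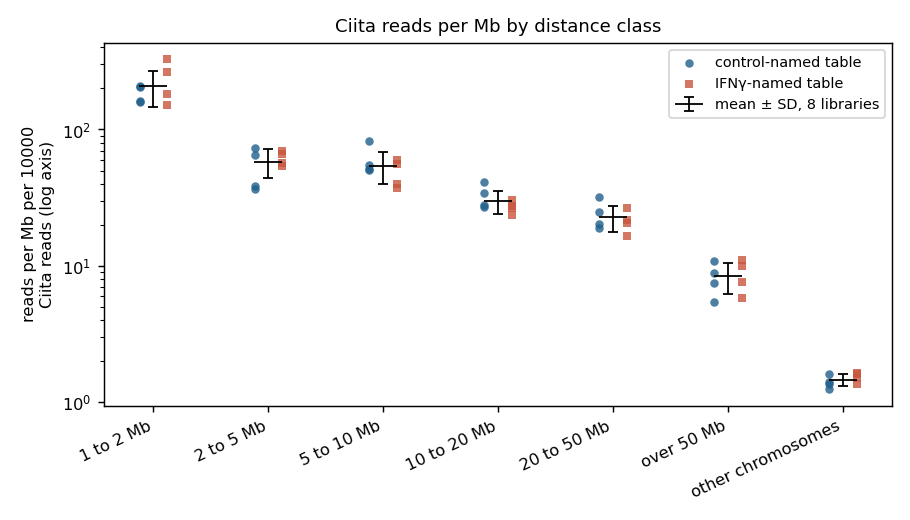
Ciita reads per Mb per 10000 Ciita reads (log axis) by distance class and on other chromosomes; points are libraries (circles control-named, squares IFNγ-named) and bars the mean ± SD over 8 libraries. Length is summed DpnII fragments for the classes and all known reference bases for other chromosomes. With both sides pooled, density falls from a mean of 207 at 1 to 2 Mb to 8.40 beyond 50 Mb. All libraries lie above the 1.24 to 1.65 of other chromosomes.

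Distant reads were unevenly spread along the chromosome. In windows of 5 Mb, reads per Mb were highest at 10 to 15 Mb (750 reads per Mb) and 5 to 10 Mb (646) and lowest at 70 to 75 Mb, where 8 pairs of 1 read each gave 1.64 reads per Mb. That window held 3 coding genes, among them the axon guidance receptor genes Robo1 and Robo2, which had no pair. Its neighbour at 65 to 70 Mb had 41 reads and 5 coding genes. Gene number and reads did not go together everywhere: the windows at 25 to 30 and 40 to 45 Mb, with 3.50 and 4.31 coding genes per Mb, had 193 and 219 reads per Mb, above the 187 of the whole range. The window at 85 to 90 Mb, with 10.7 coding genes per Mb, had 11.5. Across the 16 windows from 20 Mb on, reads per Mb and coding genes per Mb had a Spearman rho of 0.638 and a Pearson r of 0.527, given as a description since windows share the libraries and differ in base composition and in distance from the gene (rho with median GC content 0.576). Window totals of Ciita_1 and Ciita_2 over the same 16 windows had a rho of 0.147, Ciita_1 and Ciita_3 0.293, and Ciita_2 and Ciita_3 0.525.

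Fragments with many reads lay in genes more often than single-read fragments. Of the 190 fragments with 10 or more reads, 64.7% overlapped an annotated gene, against 40.9% of 220 fragments with 1 read and 46.5% of 174167 DpnII fragments of the same range. Repeat-masked bases had a median of 20.0% in the first, 47.7% in the second and 24.6% in the third set, and GC content was 43.3%, 40.7% and 41.0%. Reads of other baits fell on 23.2% of the fragments with 10 or more Ciita reads and on 0.429% of all fragments of the range, with at most 4 reads a fragment in the former set. Median length was 486.5, 535.5 and 381 bases in the sets, which were not matched for length or place on the chromosome. The part of length, place, repeats, base composition and such other reads in the Ciita counts was not tested.

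A start of an annotated gene lay within 1 kb of 21 of the 190 fragments (11.1%, against 6.33% of all fragments of the range). These sets too were not matched for length or place on the chromosome. Reads of the 21 fragments ran from 14 to 143, with a median of 62. The 4 with the most reads, named after their values were seen, lay at Usp7 (a deubiquitinase, Ciita_3, 143 reads), Mrtfb (a coactivator of serum response factor, Ciita_2, 119), Cldnd1 (Ciita_1, 117) and Nlrc3 (Ciita_3, 92). At Usp7, IFNγ-named library 2 held 135 of the 143 reads and every other library 1 or 2.

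Some genes of the interferon and antigen presentation pathways on the chromosome were among the contacts, and no test of their number was made. None of 4 interferon receptor genes (Ifnar1, Ifnar2, Il10rb and Ifngr2, clustered 80.9 to 81.1 Mb downstream) overlapped or started within 1 kb of a listed fragment. Of 6 interferon-induced genes 2 did, the antiviral GTPase genes Mx1 with 48 reads and Mx2 with 1 read. The Mx1 fragment, read with Ciita_3 at 87.0 Mb, had 4, 27, 3 and 2 control-named reads, and 4, 5, 1 and 2 IFNγ-named reads. The tables overlapped.

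Of 5 antigen presentation and co-stimulation genes, 1 had a pair: Nlrc3, an NLR family member like CIITA, with 7, 8, 7 and 53 control-named reads, and 2, 5, 5 and 5 IFNγ-named reads. Cd80, Cd86, Cd47 and Cd200 had none. None of 7 intestinal epithelial genes (Muc4, Muc13, Hes1, Retnlb, Cldn1, Tfrc and Heg1) had a pair. Of 10 transcription regulators, Crebbp had 4 pairs with 357 reads and Erg 1 read. Of 13 long neuronal genes 9 had pairs, led by Lsamp with 6 pairs and 477 reads, App with 106 reads and Rbfox1 with 65.

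Per length, the neuronal genes had 83.7 reads per Mb, against 187 over the whole distant range; the length includes Grin2a, which lies nearer than 1 Mb. The interferon-induced genes had 222, the antigen presentation genes 333 and the transcription regulators 494 reads per Mb. Each of those lists covers under 1 Mb, so 1 fragment moves its value and a gene without a pair may have had too few reads to show one.

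Distant pairs past a score of 5 were similar in number in both tables. The score is the authors' own deposited value, in the layout of the CHiCAGO caller, whose usual threshold for a contact is taken here. At 5 or more, 113 of 326 control-named and 110 of 327 IFNγ-named pairs were called. The background was 6.86% of all pairs in the first and 7.53% in the second. For the other baits beyond 1 Mb it was 28.1% and 29.1%, against 34.7% and 33.6% for Ciita. No test of these shares was made, since calls depend on each bait's depth.

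Calls in both tables numbered 71, which is 62.8% of the control-named and 64.5% of the IFNγ-named calls. Of the 81 pairs called in 1 table only, 63 had over 50% of their reads in 1 library, against 10 of the 71 called in both. A contrast of this kind follows in part from the definition, since the score pools the 4 libraries of a table. Called pairs had at least 17 control-named or 18 IFNγ-named reads.

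No single distant pair passed the test between the tables. With edgeR's quasi-likelihood test on the 190 pairs with 10 or more reads, 0 had an adjusted p under 0.05 (background 0% of 3673 pairs of all baits), the lowest being 0.282. Unadjusted, 52 of 190 had a p under 0.05, of which 27 were higher in the IFNγ-named and 25 in the control-named table, against 614 of 3673 pairs of all baits. DESeq2 called 0, with 11 unadjusted p-values under 0.05, against 274 of all baits, and gave no adjusted p for 359 of the 3673 pairs. The median log2 difference was -0.03 for these pairs and -0.05 for all 3673.

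Without the filter on reads edgeR called 27 of 455 (background 0.552% of 30435 pairs), 14 higher in the IFNγ-named and 13 in the control-named table. All 27 had 10 or more reads, as did 190 of the 455 pairs but only 3673 of the 30435. That background is therefore not matched for read depth, and no matched share was computed. Each of the 27 had at least 85.7% of its reads in 1 library, and in none did the tables' libraries separate.

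In windows of 5 Mb, with the 3 baits summed, edgeR called 0 of 19 windows (background 0% of 292 windows of all baited genes), and DESeq2 called 0. Unadjusted p-values were under 0.05 in 3 windows with edgeR and in 2 with DESeq2. DESeq2 gave no p for the window at 80 to 85 Mb, and no adjusted p for 12 of the 292 windows. Of the 3 windows with edgeR, that at 80 to 85 Mb had a log2 difference of 2.86 ± 1.00 (SE, p = 0.0102, adjusted p = 0.298 in edgeR). It had 7, 3, 3 and 3 control-named reads, and 2, 96, 3 and 5 IFNγ-named reads.

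One fragment made that window: the App intron fragment printed above, with 95 of its 104 reads in IFNγ-named library 2. App encodes the amyloid precursor protein. The window at 85 to 90 Mb had a log2 difference of 2.36 ± 0.94 (SE, p = 0.0219, adjusted p = 0.369 in edgeR) and likewise rested on an intron of Cyyr1, with 40 of 47 reads in IFNγ-named library 3. Without these libraries the log2 differences of the 2 windows were -0.00 and -0.10.

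The window at 0 to 5 Mb had fewer IFNγ-named than control-named reads, with a log2 difference of -0.91 ± 0.39 (SE, p = 0.0336, adjusted p = 0.369 in edgeR). It had 152, 144, 143 and 163 control-named reads, and 49, 103, 49 and 87 IFNγ-named reads, and the tables did not overlap. Its reads came from 11 pairs of 10 or more reads, and without the dominated ones the log2 difference was 0.31. The start sites did not all go that way: the log2 difference was 0.95 for Ciita_1 (adjusted p = 0.420 in edgeR), with 19, 22, 18 and 17 control-named reads, and 23, 67, 19 and 19 IFNγ-named reads. For Ciita_2 it was 0.20 (adjusted p = 0.929).

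By start site, this upstream window was the 1 of 49 Ciita windows that edgeR called, for Ciita_3 (background 0.311% of 322 windows, made by this call alone). It had 116, 77, 116 and 132 control-named reads, and 15, 23, 19 and 20 IFNγ-named reads, a log2 difference of -2.36 ± 0.48 (SE, adjusted p = 0.0377 in edgeR; 2.36 with the sign turned). All control-named libraries were above all IFNγ-named libraries.

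The reads came from 5 fragments, -6.64 to -5.67 Mb from Ciita_3, each with over 50% of its reads in 1 control-named library. An intron of Zfp174, a zinc finger gene, had 91 of 100 reads in library 1. The intron of Glis2, a Krüppel-like zinc finger gene, had 49 of 79 in library 2, and the Crebbp intron had 94 of 102 in library 3. The Nlrc3 exon fragment had 53 of 92 reads and the intergenic fragment 13.9 kb from 4930562C15Rik had 66 of 106 reads, both in library 4. A sixth, in an intron of Coro7, was even, with 4, 7, 4 and 5 control-named reads, and 3, 5, 4 and 5 IFNγ-named reads.

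Each of those 5 fragments was high in a single library, and DESeq2 made the call too (log2 difference -2.39, adjusted p = 7.33e-05). Leaving out 1 library at a time, the log2 difference ran from -2.59 to -2.11 in edgeR, and only without control-named library 2 was the adjusted p still under 0.05 (0.0304). Without control-named libraries 1, 3 and 4 it was 0.0764, 0.132 and 0.116, and without IFNγ-named libraries 1 to 4 it was 0.160, 0.153, 0.241 and 0.221.

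Leaving out 1 of the 6 fragments at a time kept the direction and the size of the difference. The call stayed without the intergenic fragment (log2 difference -2.34, adjusted p = 0.0414 in edgeR), without Nlrc3 (-2.40, 0.0315) and without Coro7 (-2.65, 0.0152). It was lost without Zfp174 (-2.17, 0.253), Crebbp (-2.06, 0.253) and Glis2 (-2.53, 0.110). Leaving out all pairs with over 50% in 1 library removed those 5 fragments and kept 39 of 518 reads, so the -0.26 left (adjusted p = 0.919) describes little beyond Coro7. These alternatives were chosen after seeing the data.

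**Figure D4:**
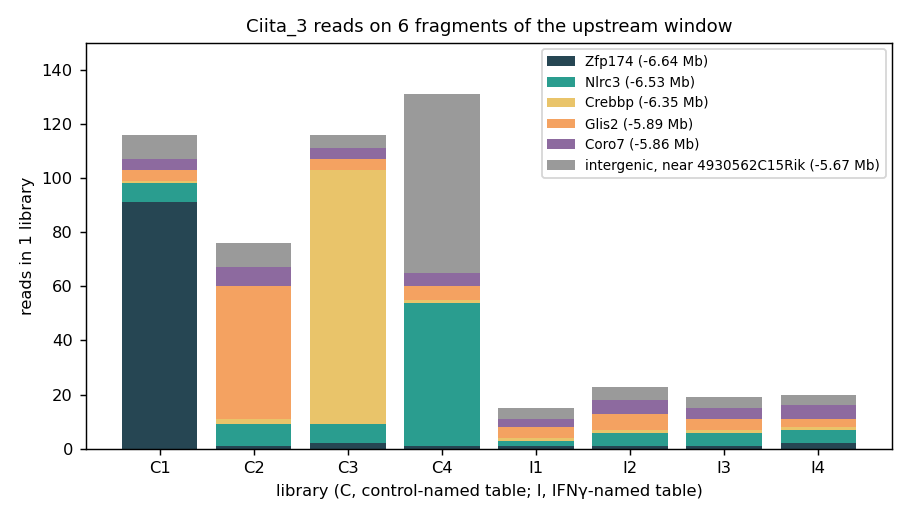
Reads of Ciita_3 in each library on the 6 fragments with 10 or more reads in the called upstream window, stacked by fragment and labelled by gene and distance; C1 to C4 are control-named and I1 to I4 IFNγ-named libraries. Each control-named library is tall through a different fragment, for example 91 reads at Zfp174 in C1 and 94 at Crebbp in C3, and all IFNγ-named libraries lie below them.

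The share of Ciita reads beyond 1 Mb differed between the tables by less than the spread of their libraries. It was 24.8%, 22.5%, 22.7% and 26.8% in control-named libraries 1 to 4, and 26.3%, 23.7%, 24.5% and 19.9% in IFNγ-named libraries 1 to 4. The means were 24.2% ± 2.01 and 23.6% ± 2.69 (SD, n = 4 each), a difference of -0.59 percentage points (two-sided exact permutation test, p = 0.771, adjusted p = 0.771 over 4 tests). This design cannot give a p under 0.0286.

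Per start site the differences were -0.73 percentage points for Ciita_1, -3.82 for Ciita_2 and 2.29 for Ciita_3, all with an adjusted p of 0.771 in the exact permutation test. Of the 6 distance classes, that at 10 to 20 Mb was the one whose libraries did not overlap, with 13.1% ± 2.10 of control-named and 11.1% ± 0.283 of IFNγ-named distant reads (SD, n = 4 libraries each). The exact permutation p was 0.0286, the smallest possible, and 0.171 adjusted over 6 classes. The other 5 classes had adjusted p-values of 0.6.

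At 1 to 7 Mb, a range present on both sides of the gene, 54.1% ± 10.6 of control-named and 47.4% ± 2.88 of IFNγ-named reads lay upstream (SD, n = 4 each, exact permutation p = 0.286). Leaving out control-named library 2, which had the lowest upstream share at 40.6%, gave a difference of -11.2 percentage points and the smallest p that 3 against 4 libraries allow, 0.0286, in the exact permutation test. It was the only 1 of 8 such settings under 0.05, and the highest p among them was 0.571 in that test. Reads on fragments in genes made up 66.5% ± 8.44 and 66.1% ± 3.65 of distant reads (SD, n = 4 each, exact permutation p = 0.914).

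Between start sites, the share of reads beyond 1 Mb did not pass the test. The share beyond 1 Mb was 26.4% ± 2.81 for Ciita_1, 22.8% ± 4.02 for Ciita_2 and 23.6% ± 4.06 for Ciita_3 (SD, n = 8 libraries each). Ciita_2 was lower than Ciita_1 in 7 of 8 libraries, by 3.63 percentage points on average (exact sign-flip permutation test, p = 0.0703, adjusted p = 0.258 over 12 comparisons). With dominated pairs left out, Ciita_2 minus Ciita_1 was -8.54 points (adjusted p = 0.0234 in the same exact test) and Ciita_3 minus Ciita_1 was -5.36 points (adjusted p = 0.0375). That setting drops distant pairs alone, so it lowers this share by construction, and dominated pairs were unevenly spread. Among pairs of 40 or more reads, 9 of 33 were dominated for Ciita_1, 33 of 59 for Ciita_2 and 26 of 57 for Ciita_3. A difference between start sites cannot be told apart from that removal here.

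Ciita_1 had the highest share of distant reads on fragments in genes, a difference that missed the adjusted threshold. The share was 75.5% ± 6.05 for Ciita_1, 61.0% ± 6.61 for Ciita_2 and 65.7% ± 7.47 for Ciita_3 (SD, n = 8 libraries each). Ciita_2 was below Ciita_1 in 8 of 8 libraries, with a mean difference of -14.5 points (exact sign-flip permutation p = 0.00781, the smallest possible, adjusted p = 0.0938 over 12). Ciita_3 was below Ciita_1 in 7 of 8, with a difference of -9.79 (exact permutation p = 0.0156, adjusted p = 0.0938).

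Both gene-body differences passed 0.05 when each fragment was counted once a library (-10.4 and -8.73 points). Both also passed when dominated pairs were left out (-9.94 and -16.0 points). Each of these had an adjusted p of 0.0234 in the exact permutation test. With a limit of 2 Mb they were -6.26 and -9.34 points, and neither passed (adjusted p = 0.375 and 0.1875 in that test). The 8 libraries share most of their fragments, so these tests measure the spread between libraries over 1 set of fragments, and counting each fragment once leaves little of that spread. Median distance and upstream share did not pass the test between start sites, with adjusted p-values from 0.672 to 0.977 in the exact test. For the upstream share of Ciita_3 minus Ciita_2, 2 settings passed in opposite directions, 6.32 points with each fragment counted once a library and -6.83 points without dominated pairs (adjusted p = 0.0234 in both, exact test). Upstream shares at 1 to 7 Mb were 48.5% ± 12.8, 49.9% ± 11.9 and 53.9% ± 12.6 for Ciita_1, Ciita_2 and Ciita_3 (SD, n = 8 each).

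**Figure D5:**
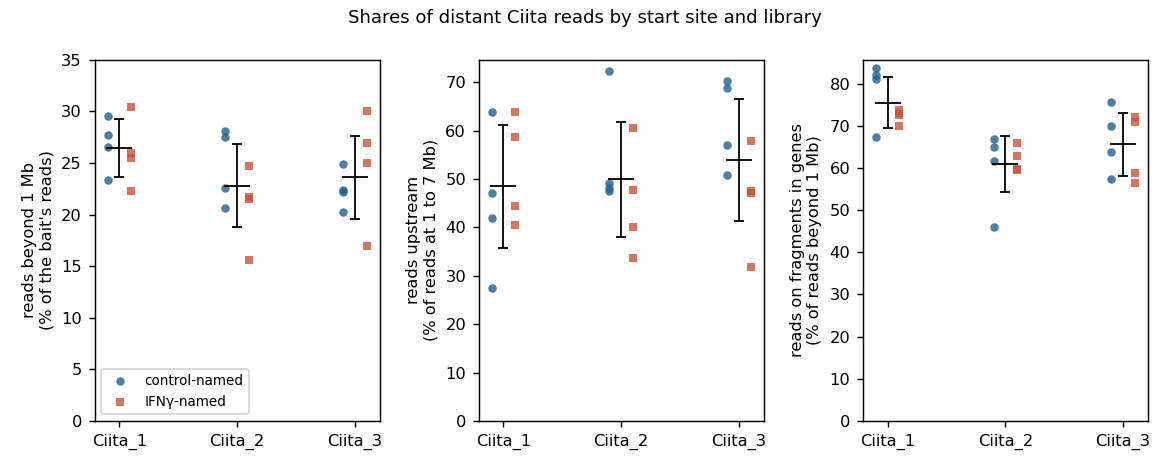
Share of a bait's reads beyond 1 Mb, share of reads at 1 to 7 Mb that lie upstream, and share of distant reads on fragments in genes, in percent, by start site; points are libraries (circles control-named, squares IFNγ-named) and bars the mean ± SD over 8 libraries. Tables overlap for every start site in the first panel, and Ciita_1 has the highest mean in the third, at 75.5%.

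Against the other baits, Ciita had a smaller share of its reads at 1 Mb or more on its own chromosome. The mean was 23.9% ± 2.22, against 31.5% ± 1.17 for the 11 other baited genes pooled (SD, n = 8 libraries each). The difference was -7.60 percentage points, with Ciita lower in 8 of 8 libraries (exact sign-flip permutation p = 0.00781, the smallest possible). This comparison was added after the data were seen. Its test measures the spread between libraries for 1 fixed set of baits, not the spread between genes. Single genes ran from 15.5% ± 5.54 for Stat3 to 43.9% ± 5.75 for Tfcp2l1, so Ciita lay inside their range. The baits differ in chromosome length and in their place on it, whose part in the difference was not tested.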

How the data were processed

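Capture-C contacts of mouse organoids were taken from 2 tables the authors deposited, each with counts of reads per fragment pair in 4 columns and a score per pair, per the file headers. The count columns are raw counts and the deposited score is the authors' own, in the layout of the CHiCAGO caller. Bowtie2 and the build mm10 are named in the submitters' processing notes; no source used here gives their versions or says whether duplicate reads were removed. Without molecular identifiers, reads are not a count of separate molecules.

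Tables were joined by fragment number, and a pair missing from 1 table was given 0 there. All 1380 chromosome 16 fragments with reads started at a GATC in the reference. Gene positions were those of GENCODE vM21, on mm10. The columns could not be tied to a mouse, passage or lane, and were read as libraries.

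Pairs and 5 Mb windows of all baits were fitted in edgeR 4.0.16 (quasi-likelihood test, TMM factors, 10 or more reads, Benjamini-Hochberg adjustment over all features), in R 4.3.3. DESeq2 1.42.0 was the other tool tried. Both steps were tested on simulated data. Shares were tested in Python 3.11.15 with exact permutation of libraries, two-sided. Named fragments were, per start site, the 5 with the highest median of reads per 10000, the 3 pairs with most reads, those listed with all 3 start sites, the 3 windows with the smallest p, and the gene lists. A pair is called dominated with 10 or more reads and over 50% in 1 library. The members, lists and tests were chosen with earlier results of these data known.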

Additional observations from a re-analysis of the deposited data

Results flagged for a closer look

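In groups of 4 libraries, 20 of 82 had 1 library far from the other 3 by Dixon's test. For single fragments it was 12 of 32 groups. Independent, normally distributed values would give about 1 in 20. The groups here hold small or tied counts and share reads, so that rate is only a rough guide. The windows among them were chosen for the smallest p, which 1 high library can give, so their flags are no separate result.

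Among control-named libraries, the outlying ones were library 4 with 116 reads at the Polq fragment of Ciita_1 (others 19 to 35) and 93 reads at the AC169509.1 fragment of Ciita_2 (16 to 24). Library 2 had 65 reads at Nagpa (11 to 14) and 40 reads at Shisa9 (12 to 15), both of Ciita_1. Library 1 had 94 reads at the Ciita_2 fragment 67.5 Mb away (9 to 11), and library 4 had 12 reads at the Ciita_1 fragment near Slc12a8, against 17 in each of the others.

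Among IFNγ-named libraries, library 1 had 66 reads at Lsamp for Ciita_1 (12 to 19), and for Ciita_3 it had 76 reads near Hunk (16 to 20) and 85 reads at Boc (17 to 20). Library 2 had 68 reads near Slc12a8 for Ciita_1 (13 to 19), and for Ciita_3 it had 142 reads near Ccdc188 (14 to 29) and 104 reads at Etv5 (16 to 24).

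In the windows, control-named library 1 had 7 reads at 80 to 85 Mb where the others had 3, IFNγ-named library 2 had 96 there (2 to 5), and IFNγ-named library 3 had 40 reads at 85 to 90 Mb where the others had 2.

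Shares and distances with an outlying library were all control-named. Library 3 had 26.4% of its distant reads at 5 to 10 Mb (14.7% to 16.4% in the others). Library 1 had 67.4% of Ciita_1 reads in genes (81.1% to 83.8%), 72.4% of Ciita_2 reads at 1 to 7 Mb upstream (47.6% to 49.1%) and a median Ciita_3 distance of 6.64 Mb (11.7 to 11.9 Mb). Library 4 had a median Ciita_1 distance of 26.6 Mb (6.36 to 6.77 Mb), which is the distance of its Polq fragment.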

How the results depend on the processing

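The 8 libraries hold 16922 distant reads on few fragments, which limits every comparison. Differences are IFNγ-named minus control-named, or the second start site minus the first, in percentage points unless a unit is given. No paired analysis was possible because the count columns name no mouse, passage or lane, so no replicate block was set.

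Calls: edgeR called 27 pairs with no filter on reads and 1 window with each bait on its own, against 0 in the reported fits. The other settings, among them leaving out each library, gave 0. Score thresholds of 3 and 10 gave 133 and 86 control-named and 134 and 80 IFNγ-named contacts.

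Nearly all well-read pairs have reads in every library, so counting each fragment once removes most read differences by construction, and leaving out dominated pairs removes those with the largest differences between libraries. Each fragment counted once a library turned the log2 difference of the windows at 0, 80 and 85 Mb to 0.0285, -0.17 and -0.29. It turned the Ciita_1 share to 0.82, the classes at 1 to 2, 2 to 5 and 20 to 50 Mb to -0.47, -0.12 and 1.04, and the gene body share to 0.98. It brought the start sites past the threshold in gene body share (-10.4 for Ciita_2 and -8.73 for Ciita_3 against Ciita_1) and in upstream share (9.87 for Ciita_3 against Ciita_1 and 6.32 against Ciita_2).

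Dominated pairs left out turned the windows at 0 and 80 Mb to a log2 difference of 0.31 and -0.14, and that at 85 Mb had too few reads to be fitted. It turned the share beyond 1 Mb to 1.24, that of Ciita_2 to 0.0549, and the classes at 2 to 5 and 5 to 10 Mb to -0.85 and 1.08. Between start sites, the median distances of Ciita_2 and Ciita_3 against Ciita_1 became 0.20 and 0.80 Mb, and that of Ciita_3 against Ciita_2 0.60 Mb. Of Ciita_3 against Ciita_2, the upstream share became -6.83 (adjusted p = 0.0234, exact permutation test) and the gene body share -6.05. Past the threshold came the shares beyond 1 Mb (-8.54 and -5.36 for Ciita_2 and Ciita_3 against Ciita_1) and the gene body shares (-9.94 and -16.0). This setting drops distant pairs alone, and more of them for Ciita_2 and Ciita_3, so it moves the shares beyond 1 Mb by construction.

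A limit of 2 Mb turned, for Ciita_3 against Ciita_2, the share beyond it to -1.29, the median distance to 3.51 Mb and the gene body share to -3.08; for Ciita_3 against Ciita_1 the median distance to 1.07 Mb; and for Ciita_2 against Ciita_1 the upstream share to -6.47. The same limit left the gene body shares of Ciita_2 and Ciita_3 against Ciita_1 at -6.26 and -9.34. Coding genes alone turned the gene body share to 0.16.

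Leaving out 1 library gave ranges of -1.49 to 0.64 for the share beyond 1 Mb, -2.19 to 0.53 for that of Ciita_1, -4.55 to 1.39 for the gene body share, -11.2 to -3.18 for the upstream share, -4.45 to 0.0372 for the class at 20 to 50 Mb and -0.0931 to 1.94 beyond 50 Mb. Windows at 80 and 85 Mb ranged from -0.00431 to 3.24 and from -0.10 to 2.72 in log2. Start sites ranged from -1.13 to 1.77 in share beyond 1 Mb (Ciita_3 against Ciita_2), from -1.97 to 5.94 in upstream share (Ciita_2 against Ciita_1), and in median distance from -1.83 to 2.30 Mb (Ciita_2 against Ciita_1), -2.05 to 0.87 Mb (Ciita_3 against Ciita_1) and -4.20 to 1.14 Mb (Ciita_3 against Ciita_2). The causes were not tested. The lower share of Ciita against the other baits kept its sign and its side of the threshold in every setting run, with -8.30 for fragments counted once a library and -4.44 without dominated pairs.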
